A study of Mus musculus with 3 samples.

Results

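Interferon-responsive microglia were examined among YFP (+) cells sorted from mouse lumbar spinal cord. They were chosen by their measured counts, as all cells with at least 4 unique molecular identifiers (UMIs, each marking 1 counted transcript) summed over 6 interferon-stimulated genes, Ifit1, Ifit2, Ifit3, Ifit3b, Rsad2 and Isg15. The definition was met by 72 of 7522 cells, which is 0.957% (exact 95% binomial interval 0.750% to 1.20%). The comparison cells came from the same libraries, had 0 UMIs of these 6 genes and were the nearest in total UMIs, up to 5 for each interferon-responsive cell (360 cells).

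The study asked how adult microglia of the spinal cord renew themselves after a peripheral nerve injury. The animals were young adult Cx3cr1-creER-yfp/+ heterozygous mice of strain C57BL/6, either naive or taken 24 h or 48 h after sciatic nerve injury (SNTr24h and SNTr48h in the labels). All groups carried the creER-yfp allele, in which the Cx3cr1 promoter drives both the recombinase and YFP, so the sort kept cells with an active Cx3cr1 promoter. Each group pooled the cells of 3 animals, which were kept in serum-free medium with TGF-β2, IL34 and cholesterol before droplet-based scRNA-Seq. The deposited matrix joins the 3 libraries, whose cells differ in a barcode suffix of 1, 2 or 3, but which suffix stands for which time point was not given in the sources used here. Values are therefore given for libraries 1, 2 and 3 without a time point. With 1 library per time point there were no replicates, so no test was made, and every interval covers counting error only. Library 1 held 609 cells and 1343055 UMIs, library 2 held 3591 cells and 24097543 UMIs, and library 3 held 3322 cells and 19769170 UMIs.

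Type I interferons bind a receptor made of Ifnar1 and Ifnar2, and the signal reaches the nucleus through a complex that holds Stat2 and Irf9. This complex binds the interferon-stimulated response element, a pair of GAAA motifs spaced by a few bases, in front of genes that block viral RNA, tag proteins, present antigen or recruit other cells. Irf7 is itself induced and amplifies the response. In the central nervous system a small interferon-responsive state of microglia is known from development, ageing and disease.

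The 6 genes that chose the cells were described first. Ifit1 (chr19:34640871-34650009), Ifit2 (chr19:34550694-34576419), Ifit3 (chr19:34583531-34588731) and Ifit3b (chr19:34607970-34613401) lie side by side on the plus strand of GRCm38 and encode proteins that bind foreign RNA. Rsad2 (chr12:26442746-26456452, minus strand) encodes viperin, an antiviral radical SAM enzyme, and Isg15 (chr4:156199424-156200818, minus strand) encodes a ubiquitin-like modifier. The motif searched, GAAA followed by any 2 bases and again GAAA, on either strand and with overlapping matches allowed, was found in the RefSeq promoter windows (250 bases before to 50 after the start, GRCm38.p6) of 5 of the 6 genes, against 3.99% of 27025 genes with such a window. The stretches are shown because they hold the element found in 5 of the 6 genes that define these cells. They are written 5′ to 3′ on the strand of the gene, with the motif or its reverse complement in capitals.
Ifit1, chr19:34640760-34640838, plus strand: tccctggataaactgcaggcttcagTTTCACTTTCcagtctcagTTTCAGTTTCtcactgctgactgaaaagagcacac
Ifit3, chr19:34583348-34583441, plus strand: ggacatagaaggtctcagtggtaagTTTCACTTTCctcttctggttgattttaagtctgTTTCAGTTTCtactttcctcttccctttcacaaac
Isg15, chr4:156200850-156200921, minus strand: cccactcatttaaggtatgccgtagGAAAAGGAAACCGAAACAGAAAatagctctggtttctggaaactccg
Rsad2, chr12:26456538-26456597, minus strand: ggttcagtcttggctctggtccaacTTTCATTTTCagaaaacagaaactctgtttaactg
The corresponding stretch of Ifit3b (chr19:34607744-34607837) was identical to that of Ifit3 at 94 of 94 bases. No match was found in the windows of Ifit2. Ifit3 and Ifit3b are close copies, so reads could be split between them by the counting.

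Isg15 was found in 66 of the 72 cells and Ifit3 in 62. Ifit2 was found in 45 cells, Ifit1 and Ifit3b in 39 cells each, and Rsad2 in 23. The cells usually held several of the genes. At least 3 of the 6 were found in 60 cells, 2 in 11 cells and 1 in 1 cell, and all 6 in 6 cells. The single cell with 1 gene, from library 3, held 4 UMIs of Isg15. At the other end, a cell of library 3 held 43 UMIs, made of 16 of Ifit3, 8 of Isg15, 6 of Ifit2, 5 of Ifit3b, 4 of Ifit1 and 4 of Rsad2. The highest cell of library 2 held 27 UMIs, with 13 of Isg15, 11 of Ifit1 and none of Ifit3, so the mix of genes differed from cell to cell. The 72 cells held 822 of the 2881 UMIs of these genes in the matrix (28.5%).

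The number of cells declined steeply from 0 to 3 UMIs of the 6 genes and was low and uneven above that. There were 5734 cells with 0 UMIs (76.2%), 1418 with 1, 253 with 2 and 45 with 3, just outside the definition. Just inside it, 10 cells held 4 UMIs, 9 held 5 and 7 held 6, and 36 cells held at least 10. The definition thus marks the upper end of a range. The share of cells that free RNA alone would give was not measured, so cells with 1 to 3 UMIs were not read as expressing or lacking these genes.

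**Figure D1:**
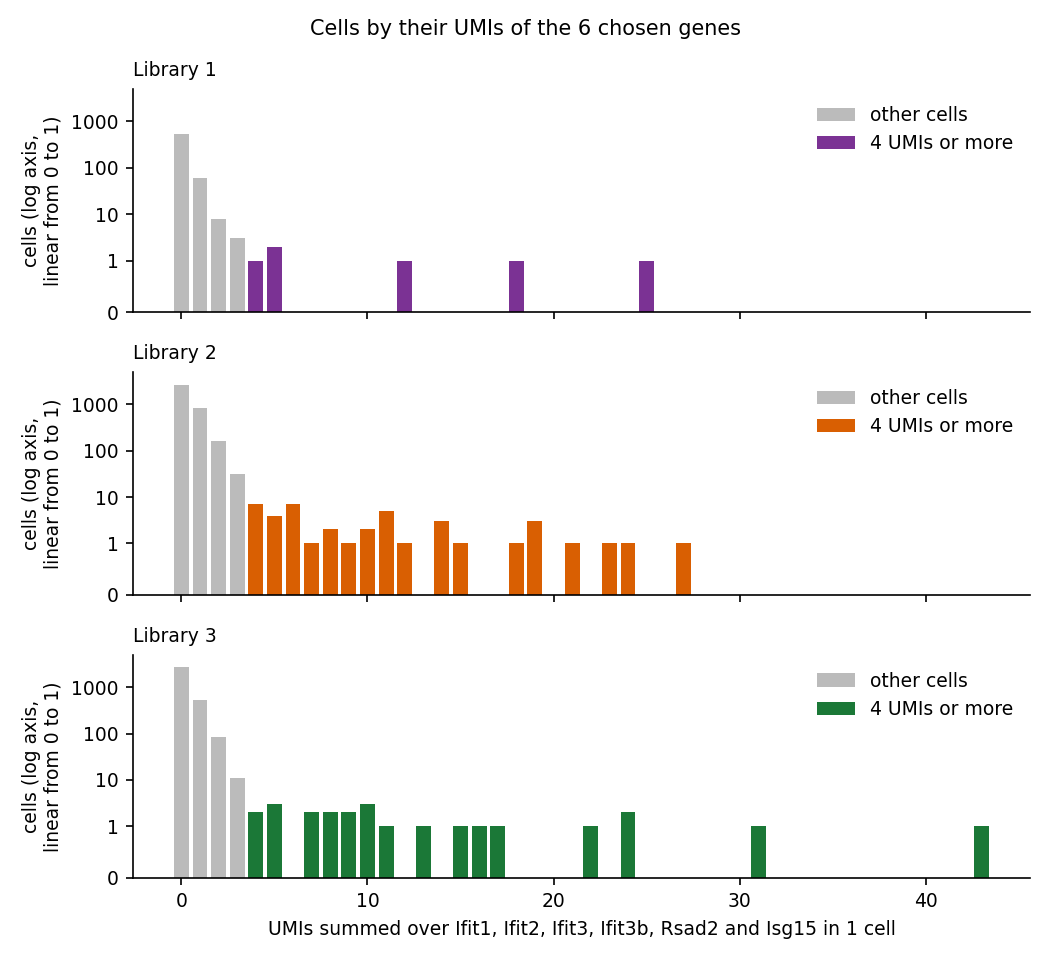
Number of cells (log axis, linear below 1) by UMIs summed over the 6 chosen genes, 1 panel per library, with cells of at least 4 UMIs in colour. Counts decline steeply from 0 to 3 UMIs and are low and scattered above, and the highest cells hold 25 UMIs in library 1, 27 in library 2 and 43 in library 3.

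By library, 6 of 609 cells met the definition in library 1 (0.985%, 0.362% to 2.13%), 42 of 3591 in library 2 (1.17%, 0.844% to 1.58%) and 24 of 3322 in library 3 (0.722%, 0.463% to 1.07%). These intervals overlap for each pair of libraries. The libraries differed in depth, with medians of 2218, 5952 and 5742 UMIs per cell in libraries 1, 2 and 3. After each cell was thinned to 2000 UMIs, 4 of 408 cells of library 1 (0.980%, 0.268% to 2.49%), 11 of 3569 of library 2 (0.308%, 0.154% to 0.551%) and 10 of 3284 of library 3 (0.305%, 0.146% to 0.559%) still held at least 4 UMIs. The thinning left out 201, 22 and 38 shallower cells of libraries 1, 2 and 3, none of them interferon-responsive. Summed over all cells, the 6 genes were at 115 CPM (counts per 1000000 UMIs, interval 98.0 to 135) in library 1, 69.1 CPM (65.8 to 72.5) in library 2 and 53.7 CPM (50.5 to 57.0) in library 3. Without the interferon-responsive cells, the levels were 64.9, 51.9 and 38.0 CPM.

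By their values, 5 of the 6 chosen genes were highest in library 1 and lowest in library 3, and Ifit2 was not. Ifit3 over all cells was at 40.2 CPM (30.2 to 52.5) in library 1, 19.5 CPM (17.8 to 21.4) in library 2 and 16.6 CPM (14.9 to 18.5) in library 3. Isg15 was at 38.0 CPM (28.3 to 49.9), 26.7 CPM (24.7 to 28.9) and 22.6 CPM (20.5 to 24.8). Ifit3b was at 16.4 CPM (10.3 to 24.8), 5.81 CPM (4.89 to 6.86) and 2.78 CPM (2.096 to 3.62). Ifit1 was at 10.4 CPM (5.70 to 17.5), 6.35 CPM (5.38 to 7.44) and 3.84 CPM (3.03 to 4.81). Rsad2 was at 5.96 CPM (2.57 to 11.7), 3.07 CPM (2.41 to 3.86) and 2.68 CPM (2.01 to 3.51), with overlapping intervals in all 3 libraries. Ifit2 was lowest in library 1 by its value, at 4.47 CPM (1.64 to 9.72) against 7.59 CPM (6.53 to 8.78) and 5.16 CPM (4.21 to 6.26), with overlapping intervals for library 1. Of the 22 UMIs of Ifit3b in library 1, 16 (72.7%) were in 4 of the 6 interferon-responsive cells. The intervals cover counting error only and treat UMIs as independent, which UMIs held by a few cells are not, so no difference between the libraries is read from them.

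Cells with 4 or more UMIs were deeper than the rest. This is not read as a trait of the cells, since deeper cells reach a threshold on raw counts more easily. The median of the interferon-responsive cells was 7138 UMIs per cell, against 5471.5 in all cells with 0 UMIs and 7137 in the depth-matched cells. The matched cells were also alike in genes found (median 2659.5 against 2656.5), and the mitochondrial share was 1.59% against 1.40%. Of the barcodes, 51 cells shared theirs with a cell of another library, and 1 of them was interferon-responsive, in library 2. No shared barcode was interferon-responsive in both libraries.

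The interferon-responsive cells carried the markers of microglia. P2ry12, a purinergic receptor, Tmem119, a surface protein of microglia, the growth factor receptor Csf1r and Cx3cr1 were each found in 72 of 72 cells. Of 8 microglia markers, every cell held at least 6, and the median was 7. Markers of monocytes, perivascular macrophages and T and NK cells were sparse. None of the 72 cells held 2 or more of 8 monocyte, 7 perivascular macrophage or 8 T and NK cell markers, with at least 1 marker in 4, 1 and 1 cells. The monocyte receptor gene Ccr2 had no UMI in the interferon-responsive or matched cells of libraries 2 and 3, and the most abundant monocyte marker, Plac8, had 2 UMIs in library 2 and 3 in library 3. Summed monocyte markers were at 4.94 CPM against 2.03 in library 2 and 17.6 against 0 CPM in library 3. The neutrophil markers were found through Csf3r alone, in 50 cells, and S100a8 and S100a9 had no UMI in the interferon-responsive cells of libraries 2 and 3.

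Oligodendrocyte markers were found in both classes, with at least 2 of 7 in 15 of 72 interferon-responsive and 76 of 360 matched cells. Their sum was 141 CPM against 138 CPM in library 2 and 158 CPM against 141 CPM in library 3, with Cnp as the most abundant gene. Summed endothelial markers were at 22.2 against 18.3 CPM in library 2 and 76.3 against 29.4 CPM in library 3, and their part in the results was not tested. Astrocyte markers were at 136 against 90.0 CPM and 135 against 97.5 CPM, through Slc1a3, while Gfap had no UMI in the interferon-responsive cells of libraries 2 and 3. The sum of B cell and plasmacytoid markers was higher (837 against 419 CPM and 745 against 330.1 CPM), and its most abundant gene was Bst2, which is also an interferon effector.

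Across genes, UMIs were summed over each class within a library, and a gene was counted as higher or lower where the ratio of CPM + 10 was at least 2-fold the same way in libraries 2 and 3. Of 9436 genes with at least 5 CPM over all cells, other than the 6 chosen genes, 39 were higher (0.413%) and 5 lower (0.053%). With 10 CPM added, a gene under 10 CPM in the matched cells could be counted as higher but never as lower. With 1 CPM added instead, 73 genes were higher and 206 lower, and with 5 CPM added 48 and 46. The numbers higher and lower are therefore not set against each other. The median log2 ratio of all genes was -0.03 in library 2 and -0.06 in library 3. In library 3 alone, with 24 interferon-responsive cells, 233 genes were at least 2-fold higher and 470 lower, against 59 and 63 in library 2 with 42 cells. Of the 39 genes, 30 belonged to one of the gene lists, among them 19 of the interferon effector list, and none took more than 50% of its UMIs in the interferon-responsive cells from 1 cell. These genes were measured in the cells that the 6 genes chose, so they describe those cells and are no separate test of the definition.

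**Figure D2:**
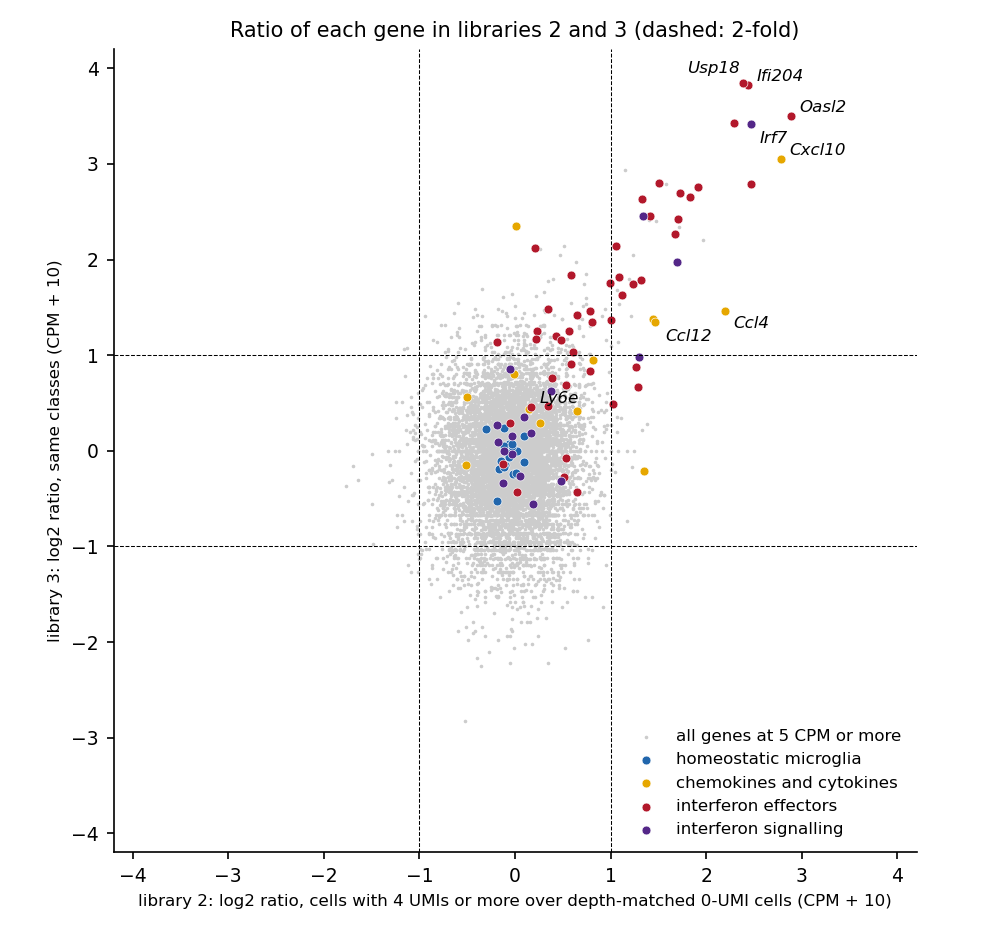
Log2 ratio of CPM + 10 between interferon-responsive and depth-matched cells for each gene in library 2 (horizontal) and library 3 (vertical), with gene lists in colour and dashed lines at 2-fold. Interferon effectors and signalling genes such as Oasl2, Usp18 and Irf7 lie in the upper right, and homeostatic microglia genes lie near 0 on both axes.

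The interferon effectors, 66 measured genes of the antiviral response, formed the largest group of higher genes. Of the 48 at 5 CPM or more, 19 were at least 2-fold higher in both libraries and 0 lower, and 41 had a log2 ratio above 0 in both. Over all 9436 compared genes 0.413% were higher and 0.053% lower, and the share above 0 in both was not counted. The effectors had a median log2 ratio of 0.79 in library 2 and 1.40 in library 3, against -0.03 and -0.06 for all genes. Oasl2, of the oligoadenylate synthetase family, was at 128 CPM against 8.65 in library 2 (14.8-fold, 95% counting interval 8.45 to 27.4) and at 223 CPM against 10.6 in library 3 (21.1-fold, 10.0 to 49.6). It was found in 25 of 42 and 16 of 24 interferon-responsive cells, against 16 of 210 and 6 of 120 matched cells.

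Usp18, a protease that removes Isg15 from proteins and dampens the receptor, was at 106 against 12.2 CPM in library 2 (8.70-fold, 5.16 to 15.0) and 235 against 7.05 CPM in library 3 (33.3-fold, 14.0 to 96.1). Ifi204, a DNA-binding protein of the HIN-200 family, was at 242 against 36.6 CPM (6.61-fold, 4.82 to 9.08) and 382 against 17.6 CPM (21.7-fold, 12.2 to 40.9). Pyhin1 and AI607873 of the same family and region of chromosome 1 were higher too, with log2 ratios of 2.47 and 1.58 in library 2 and 2.79 each in library 3. Since these are similar neighbours, reads may be shared between them. The same holds for Phf11b (log2 1.91 and 2.76) and Phf11d (1.72 and 2.70), neighbours on chromosome 14.

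Zbp1, a sensor of left-handed nucleic acid, was at 79.0 against 8.14 CPM in library 2 (9.71-fold, 5.17 to 18.9), and 21 UMIs stood against 2 in library 3 (52.5-fold, 12.8 to 462). Membrane proteins that hold back viruses were also among the higher genes. Bst2, or tetherin, was at 609.7 against 253 CPM (2.41-fold, 2.06 to 2.81) and 639.8 against 184 CPM (3.47-fold, 2.69 to 4.46), and was found in 41 of 42 and 24 of 24 interferon-responsive cells. Ifitm3, which blocks virus entry, was at 402 against 154 CPM (2.61-fold, 2.14 to 3.17) and 417 against 58.7 CPM (7.10-fold, 4.87 to 10.4). The other higher effectors were Rtp4, Parp14, Sp100, Oas1a, Ifih1, Ms4a4c, Xaf1, Tor3a, Trim30a and Ube2l6, with log2 ratios from 1.0 (Ube2l6) to 1.84 (Rtp4) in library 2 and from 1.37 (Ube2l6) to 2.81 (Ifih1) in library 3.

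The most abundant effector, Ly6e, differed far less. It was at 2399 against 2129 CPM in library 2 (1.13-fold, 1.05 to 1.21) and 2219 against 1612 CPM in library 3 (1.38-fold, 1.23 to 1.54), and it was found in every cell of both classes there. Ly6e alone held 46.4% of the UMIs of the list. Slfn2 (log2 0.48 and 1.15) and Ifi27l2a (0.34 and 1.49) passed 2-fold in library 3 alone. Because Ly6e weighs on the sum, the whole list was at 7965 against 4616 CPM in library 2 (1.73-fold, 1.66 to 1.80) and 9445 against 3474 CPM in library 3 (2.72-fold, 2.56 to 2.89).

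The same motif was found in the promoter window of 11 of the 26 higher genes that had one (42.3%). The share was 26.1% of 23 effectors that were compared and not called, and 3.75% of 7305 compared genes. Stretches of 4 genes with different roles are shown to set them beside those of the chosen genes, with the motif in capitals as above. A match gives letters and not a measured binding site.
Stat2, chr10:128270251-128270310, plus strand: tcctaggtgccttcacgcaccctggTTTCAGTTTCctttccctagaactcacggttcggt
Oas1a, chr5:120907526-120907570, minus strand: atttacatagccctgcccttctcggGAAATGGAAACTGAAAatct
Bst2, chr8:71537562-71537627, minus strand: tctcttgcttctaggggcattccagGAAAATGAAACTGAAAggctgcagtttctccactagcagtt
Cxcl10, chr5:92349068-92349127, minus strand: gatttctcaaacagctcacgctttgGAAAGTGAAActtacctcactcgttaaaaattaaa
Isg15, Oas1a and Bst2 hold overlapping matches, with GAAA repeated at a fixed spacing. Irf7 and Oasl2 had no match in their windows.

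The pathway was followed from ligand to transcription factor. Ligands were not seen, as none of 13 interferon genes had a UMI in the interferon-responsive cells of any library, which allows up to 5.06 CPM over the 592689 UMIs of the 72 cells. In the whole matrix Ifnb1 had 2 UMIs and Ifng 3. The receptor chains did not pass 2-fold. Ifnar1 was at 106 against 73.2 CPM in library 2 (1.45-fold, 1.01 to 2.05) and 47.0 against 61.1 CPM in library 3 (0.769-fold, 0.315 to 1.63), so the direction differed. Ifnar2 had log2 ratios of -0.12 and 0.00.

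Of the 18 signalling genes, 4 were higher, Stat2, Irf7 and Usp18 among them, and 0 lower, against 0.413% and 0.053% of all compared genes. Usp18 was also counted with the effectors. The signalling list's median log2 ratio was 0.13 in library 2 and 0.22 in library 3. The median of the mean log2 ratios was 0.13, -0.10 without the top cell of each gene, which was chosen after seeing the data, and 0.05 among genes at 20 CPM or more. Irf7, the inducible transcription factor, was at 156 against 19.8 CPM in library 2 (7.84-fold, 5.18 to 12.01) and 235 against 12.9 CPM in library 3 (18.2-fold, 9.15 to 39.3). Stat2 was at 61.7 against 12.2 CPM (5.06-fold, 2.77 to 9.25) and 93.9 against 16.4 CPM (5.71-fold, 2.61 to 12.6). Irf9, the partner of Stat2, gave 83.9 against 87.5 CPM in library 2 (0.959-fold, 0.644 to 1.39) and 99.8 against 50.5 CPM in library 3 (1.98-fold, 1.06 to 3.54). Irf8, a lineage factor of microglia, had log2 ratios of 0.17 and 0.18.

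Sensors of viral nucleic acid were higher in part. Of 12 compared genes, 4 were higher (Ifih1, Dhx58, Zbp1 and Tlr3), against 0.413% of all compared genes. Ifih1 and Zbp1 were also counted with the effectors, and Samhd1 is in both lists. Of the 12 sensors, 11 had a log2 ratio above 0 in both libraries. The median log2 ratio of the sensors was 0.87 in library 2 and 0.99 in library 3. Ifih1, which encodes the RNA sensor MDA5, was at 54.3 against 12.7 CPM (4.27-fold, 2.30 to 7.89) and 117 against 8.22 CPM (14.3-fold, 5.80 to 40.0). Tlr3, the endosomal receptor of double-stranded RNA, was at 96.3 against 36.6 CPM (2.63-fold, 1.73 to 3.93) and 188 against 47.0 CPM (4.0-fold, 2.43 to 6.53). Samhd1, which removes nucleotides, had a log2 ratio of 1.75 in library 3 and was just under the threshold in library 2, at 2.23-fold (1.48 to 3.29) before the pseudocount. Tmem173, which encodes STING, gave 276 against 258 CPM (1.07-fold, 0.866 to 1.32) and 358 against 278 CPM (1.29-fold, 0.954 to 1.71), and Aim2 had log2 ratios of 0.32 and 0.31.

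Of 7 compared guanylate-binding and IRG GTPases, which act on the vacuoles of intracellular parasites, Irgm1 was higher, at 59.2 against 16.3 CPM (3.64-fold, 2.05 to 6.38) and 99.8 against 10.6 CPM (9.44-fold, 3.98 to 24.0). Over all compared genes 0.413% were higher. Gbp7 had log2 ratios of 0.67 and 0.92, Igtp 0.67 and 0.91, and Irgm2 0.61 and 0.51. The list's median log2 ratio was 0.67 and 0.91 in libraries 2 and 3. The median of the mean log2 ratios was 0.79, and 0.52 without the top cell of each gene, which was chosen after seeing the data.

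The chemokine and cytokine list was higher as a sum, mostly through Ccl12. The 16 measured chemokines and cytokines summed to 4868 against 1833 CPM in library 2 (2.65-fold, 2.51 to 2.81) and 14698 against 6404 CPM in library 3 (2.30-fold, 2.19 to 2.41). Of the 13 compared, 4 were higher, Cxcl10, Ccl2, Ccl4 and Ccl12, and 0 lower, against 0.413% and 0.053% of all compared genes. The list's median log2 ratio was 0.64 in library 2 and 0.80 in library 3. Ccl12 held 1300 of the 1972 UMIs of the list in the interferon-responsive cells of library 2 and 1545 of 2504 in library 3. The median of the mean log2 ratios was 0.57, and 0.23 without the top cell of each gene, an alternative chosen after seeing the data. Ccl12, a ligand of the monocyte receptor Ccr2, was at 3209 against 1156 CPM (2.77-fold, 2.59 to 2.97) and 9069 against 3567 CPM (2.54-fold, 2.39 to 2.70). It was found in all 66 interferon-responsive cells of both libraries, but also in 208 of 210 and 120 of 120 matched cells, so that the classes differed in level and not in detection.

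Ccl2, a ligand of the same receptor, was at 306 against 106 CPM (2.88-fold, 2.29 to 3.61) and 1033 against 390.0 CPM (2.65-fold, 2.19 to 3.19). Ccl4, which attracts immune cells, was at 649 against 134 CPM (4.85-fold, 4.08 to 5.78) and 2213 against 799 CPM (2.77-fold, 2.44 to 3.15), with 22.8% of its UMIs in the interferon-responsive cells from 1 cell. Ccl4 was found in 18 of 42 and 24 of 24 interferon-responsive cells, against 80 of 210 and 118 of 120 matched cells. The neighbouring gene Ccl3 was less different, at 143 against 88.0 CPM (1.63-fold, 1.19 to 2.20) and 1391 against 1039.5 CPM (1.34-fold, 1.15 to 1.55). Cxcl10, which attracts T cells through Cxcr3, was uneven. It was at 202 against 20.9 CPM (9.71-fold, 6.59 to 14.5) and 141 against 8.22 CPM (17.1-fold, 7.16 to 47.1), but it was found in only 9 of 42 and 7 of 24 interferon-responsive cells, and 1 cell held 37.7% of its UMIs. The related Cxcl9 had 2 UMIs in the whole matrix, and Cxcl9 was chosen after its values were seen.

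No antigen presentation gene passed 2-fold in both libraries. Over all 9436 compared genes 0.413% were higher and 0.053% lower, so 0 calls is near that share and is not read as particular to these genes. Of 20 compared genes of the MHC class I pathway, 0 passed 2-fold in both libraries, and the median log2 ratio was 0.27 in library 2 and 0.25 in library 3, with 15 above 0 in both. B2m, the light chain of MHC class I, was at 3648 against 3482 CPM (1.05-fold, 0.990 to 1.11) and 3475 against 2949 CPM (1.18-fold, 1.08 to 1.29). The heavy chain gene H2-K1 had log2 ratios of 0.00 and 0.09, H2-D1 0.10 and -0.09, and the immunoproteasome subunit gene Psmb8 0.23 and 0.37. Some members differed more, such as the peptide transporter gene Tap1, at 1.81-fold (1.19 to 2.69) and 3.62-fold (1.96 to 6.57), and the nonclassical gene H2-T23, at 1.74-fold (1.10 to 2.69) and 3.11-fold (1.76 to 5.37). Tap1 and H2-T23 were chosen after their values were seen. None of the 4 compared MHC class II genes passed 2-fold in both libraries, and Cd74 had log2 ratios of 0.33 and 0.91.

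Genes of microglia identity were at similar or slightly lower levels. None of 20 homeostatic genes passed 2-fold, where 0.413% of all compared genes were higher and 0.053% lower. Their median log2 ratio was -0.08 in library 2 and -0.02 in library 3, near that of all genes. P2ry12 was at 1920.3 against 2070.4 CPM (0.928-fold, 0.858 to 1.002) and 2143 against 2368 CPM (0.905-fold, 0.807 to 1.01). Cx3cr1, whose promoter drove the sorted YFP, was at 1298 against 1457 CPM (0.891-fold, 0.811 to 0.979) and 1338 against 1526 CPM (0.877-fold, 0.759 to 1.01). Tmem119 had log2 ratios of -0.10 and 0.04, and Csf1r -0.14 and -0.11. Of 15 compared activation genes, among them the cathepsins Ctsb and Ctsd and the ferritin gene Fth1, 0 passed 2-fold in both libraries, with a median log2 ratio of 0.03 and -0.16.

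**Figure D3:**
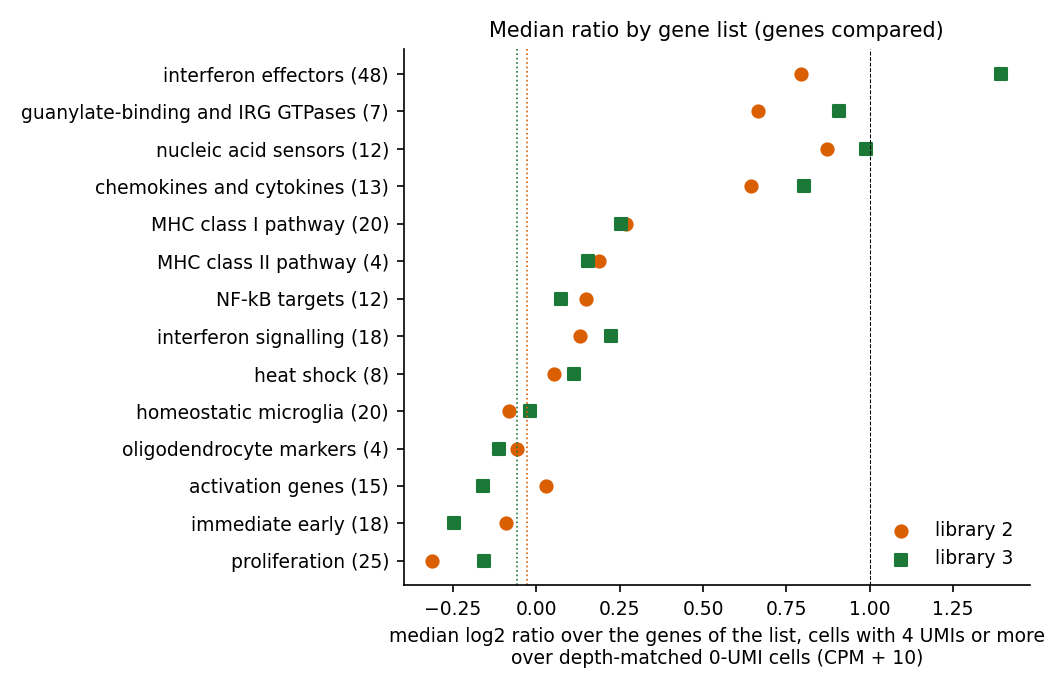
Median log2 ratio of CPM + 10 between interferon-responsive and depth-matched cells for each list with at least 4 compared genes (number in brackets), in library 2 (circles) and library 3 (squares), with dotted lines at the median of all genes. Interferon effectors reach 0.79 and 1.40, while homeostatic, activation, early and proliferation genes lie near or below 0.

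No gene of the proliferation or immediate early lists passed 2-fold the same way in both libraries. Since 0.413% of all 9436 compared genes were higher and 0.053% lower, 0 calls is near that share and is not read as particular to these lists. The 25 proliferation genes had a median log2 ratio of -0.31 in library 2 and -0.16 in library 3, with 15 below 0 and 0 above 0 in both. Their sum was 4766 against 5692 CPM in library 2 (0.837-fold, 0.797 to 0.879) and 1685 against 1688 CPM in library 3 (0.998-fold, 0.876 to 1.13). The median of the mean log2 ratios was -0.20, and -0.01 against all 0-UMI cells without matching on depth. A share of cells with at least 3 UMIs of this list did not inform, since every cell of libraries 2 and 3 in both classes reached it. In library 1 it was reached by 2 of 6 interferon-responsive cells (33.3%, 4.33% to 77.7%) and 23 of 30 matched cells (76.7%, 57.7% to 90.1%), with overlapping intervals. The summed list held 16 UMIs (931 CPM) against 132 UMIs (1537 CPM) there. Mki67, which encodes the cycling marker Ki67 and was chosen after this was seen, had a UMI in 18 of 42 interferon-responsive cells of library 2 (42.9%, 27.7% to 59.0%) and 99 of 210 matched cells (47.1%, 40.2% to 54.1%). In library 3 it was found in 0 of 24 interferon-responsive cells, with an exact upper limit of 14.2% (12.5% by the limit of 3 counts) for cells with a UMI and no limit set on cells that express the gene, and 1 of 120 matched cells. In library 2 the interval of the interferon-responsive cells included the share of the matched cells.

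Immediate early genes were slightly lower in library 3, where the 21 genes summed to 26820 against 31953 CPM (0.839-fold, 0.814 to 0.866), and close in library 2 (3021 against 3171 CPM, 0.953-fold, 0.895 to 1.01). Jun had log2 ratios of -0.23 and -0.27 and Fos -0.12 and -0.32. Of 12 NF-kB targets, 0 passed 2-fold in both libraries, where 0.413% of all compared genes were higher and 0.053% lower. Nfkbia, the inhibitor that NF-kB induces, had log2 ratios of 0.26 and 0.04. Of 8 heat shock genes, Hspa1a was higher, with 7 UMIs in each class in library 2 (4.85-fold, 1.45 to 16.2) and 317 against 143 CPM in library 3 (2.21-fold, 1.57 to 3.07). It was found in 4 and 15 interferon-responsive cells, and 1 cell held 22.95% of its UMIs in these cells. The other 7 genes did not pass, with Hspa8 at log2 ratios of 0.06 and 0.09.

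Outside the lists, 9 genes were higher. Among them were Ddx60, an RNA helicase (log2 1.96 and 2.21), Rnf213, a large ubiquitin ligase (1.48 and 2.40), Samd9l, a restriction factor (1.22 and 1.41), and Sp110, a nuclear body protein (1.06 and 1.68), which is similar to Sp100. Fgl2, a secreted fibrinogen-like protein, was at 79.0 against 30.0 CPM in library 2 (2.63-fold, 1.66 to 4.11) and 129 against 8.22 CPM in library 3 (15.7-fold, 6.48 to 43.5). Ly6a, or Sca-1, had log2 ratios of 1.72 and 2.34, Clec2d 1.09 and 1.53, and B430306N03Rik 1.23 and 2.05. The ninth was AI607873, given above.

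The 5 lower genes rested on few counts and formed no list. Tln2 had 3 UMIs against 53 in library 2 and 1 against 24 in library 3, with 5 matched cells for each interferon-responsive cell. Rnf5 had 7 against 89 and 1 against 24, Haus1 3 against 49 and 1 against 21, Pigw 0 against 23 and 0 against 11, and Magi1 0 against 20 and 1 against 20. The counting interval of the ratio included 1 in library 3 for all 5 genes. In library 2 it lay below 1 for all 5, with upper limits from 0.820 (Rnf5) to 0.983 (Magi1), in genes picked by these ratios.

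The difference in effectors was also seen cell by cell. A median of 26 of the 66 effector genes was found per interferon-responsive cell, with a range of 11 to 40, against 12 per matched cell, with a range of 2 to 32. In library 2 the medians were 26 and 14, and 5 of 42 interferon-responsive cells exceeded the highest matched cell, at 32 genes, so the classes overlapped. In library 3 the medians were 27 and 11, and 20 of 24 cells exceeded the highest matched cell, at 19 genes. Only 3 interferon-responsive cells of library 2, and none of libraries 1 and 3, were at or below the median of their matched cells. The effector level was 9429 CPM per cell (median, 4138 to 31177) against 4208 CPM.

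**Figure D4:**
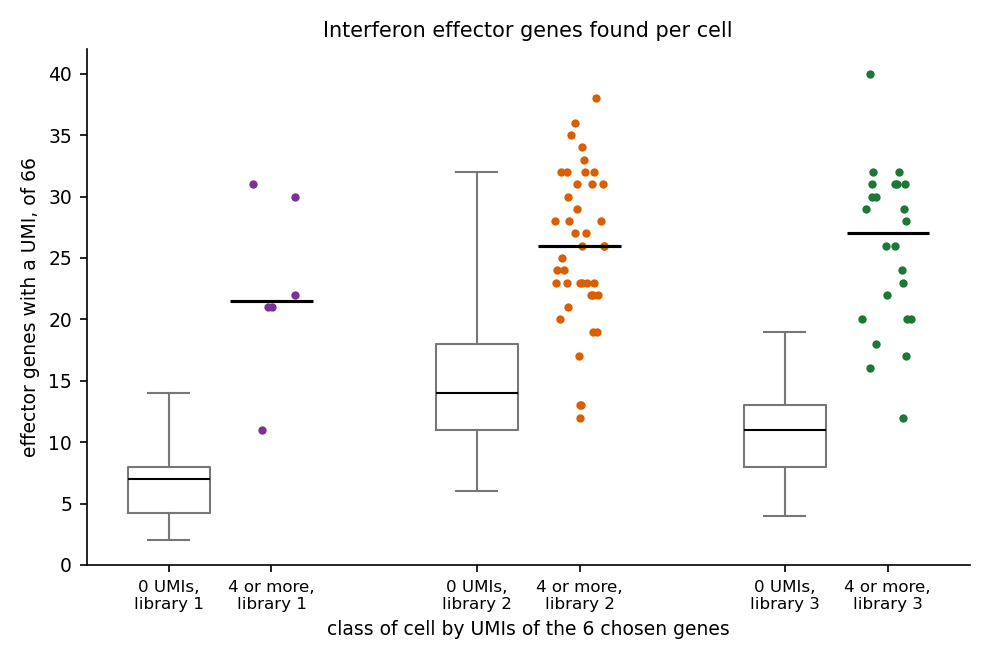
Number of the 66 interferon effector genes with a UMI in each cell. Points are interferon-responsive cells with their median (line), and boxes give the lowest, quartiles, median and highest of the depth-matched cells of each library. The medians are 21.5 against 7 in library 1, 26 against 14 in library 2 and 27 against 11 in library 3.

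The cells that held more of the 6 chosen genes also held more of the other effectors. In library 2, the effector list was at 4646 CPM (4613 to 4679) in cells with 0 UMIs of the chosen genes, 4705 with 1, 4857 with 2 and 5256 (4979 to 5544) with 3. Above the threshold it was at 6637 CPM with 4 to 5 UMIs (11 cells), 6910 with 6 to 9 (11 cells) and 9391 (8954 to 9844) with 10 or more (20 cells). In library 3 the levels were 3576 CPM (3546 to 3606) with 0 UMIs, 3604 with 1, 3999.9 with 2, 5465 with 3 (11 cells) and 6973 with 4 to 5 (5 cells). They were 10788 CPM with 6 to 9 (6 cells) and 9824 with 10 or more (13 cells), and the intervals of these bins overlap. As deposited, the level was already higher at 3 UMIs than at 0 in both libraries and was higher again above the threshold. With cells thinned to 2000 UMIs after binning, it was 4673, 5468 and 9950 CPM at 0, 3 and 10 or more UMIs in library 2 and 3618, 6591 and 10231 CPM in library 3. At 4 to 5 UMIs the thinned level was 6409 CPM in library 2 and 6000 CPM (4579 to 7723, 5 cells) in library 3, there below the value at 3 UMIs (5562 to 7755, 11 cells) with overlapping intervals.

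**Figure D5:**
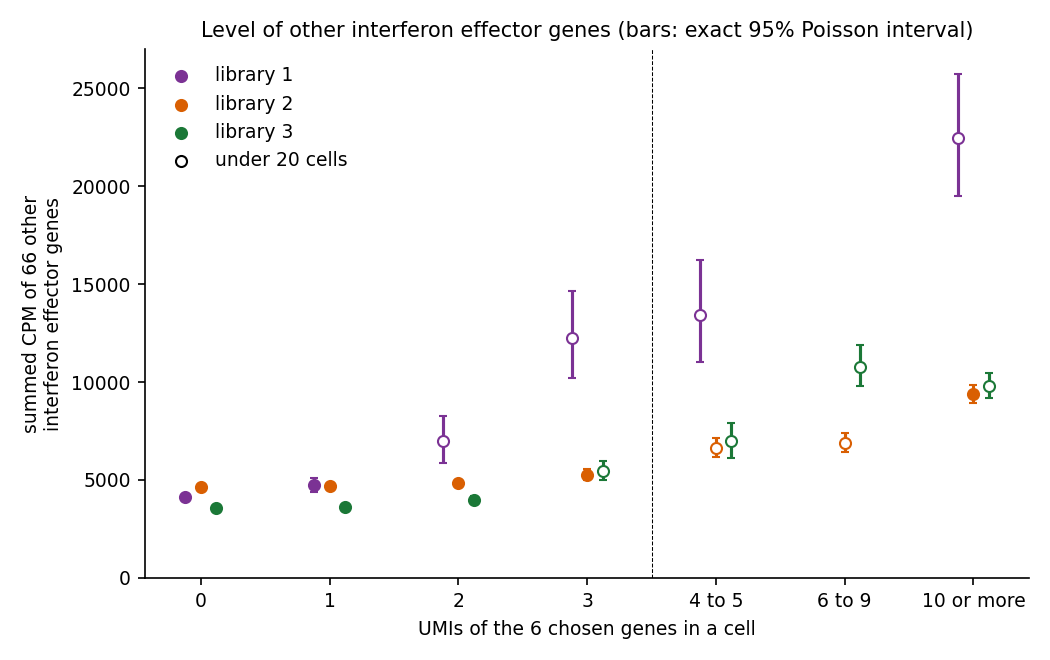
Summed CPM of the 66 other interferon effector genes in cells binned by their UMIs of the 6 chosen genes, by library, with exact 95% Poisson intervals and open symbols for bins under 20 cells. The dashed line marks the threshold of 4 UMIs, and the level climbs from 4646 to 9391 CPM in library 2 and from 3576 to 9824 CPM in library 3.

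Library 1 gave 6 interferon-responsive cells, with 4, 5, 5, 12, 18 and 25 UMIs of the chosen genes and 2034 to 3851 UMIs in all, so its values are given without ratios. Its effectors summed to 315 UMIs (18321 CPM) in these cells against 394 UMIs (4586 CPM) in 30 matched cells. Oasl2 had 21 UMIs against 0, Ifi204 11 against 1 and Irf7 8 against 3. The chemokine list was at 227 UMIs (13203 CPM) against 64 UMIs (745 CPM), mostly through Ccl12, with 183 against 30 UMIs. Homeostatic genes summed to 90502 against 113923 CPM. The 6 cells differed widely in effector level, from 8486 to 31177 CPM.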

How the data were processed

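The authors deposited 1 matrix of UMI counts per gene and cell, without normalization, for 27998 genes and 7522 cells. The submitters' processing notes name Cell Ranger 2.1.1 and mm10. Each library was defined by barcode suffix, and no suffix was given a time point. The methods name doublet exclusion in the sort, which came before the cells entered droplets. No doublet caller was run here, so droplets with more than 1 cell were not looked for. The cells, gene lists and threshold were chosen with earlier results of these data known.

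All deposited cells were used. Counts were summed per class and library and scaled to CPM. A gene was called at 2-fold or more in libraries 2 and 3 on log2(CPM + 10), among genes with at least 5 CPM over all cells. Ratios have exact conditional binomial 95% intervals, shares exact Clopper-Pearson intervals and levels exact Poisson intervals. Thinning to 2000 UMIs used seed 1, and a count of 0 was given a limit of 3 counts. The comparison was tested on simulated data. Named genes were the 6 chosen genes, the 25 highest and 10 lowest called genes, the 4 most abundant and any called genes of a list, and key pathway genes. Some of these are given as counts only or are not reported here. Listed genes without a single identifier (Oas1b, Mx2, Cxcl11, Clec7a, Pclaf, Trac and Gbp6) were left out. Positions are from GENCODE M21 on GRCm38, and promoters from RefSeq. The scripts ran under Python 3.11.15 with pandas 2.3.3, scipy 1.17.1, numpy 2.4.6 and matplotlib 3.10.9.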

Additional observations from a re-analysis of the deposited data

Results flagged for a closer look

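Mcm2, which encodes a subunit of the replicative helicase, was past 2-fold in opposite directions in the 2 larger libraries, with a log2 ratio of -1.16 in library 2 and 1.07 in library 3. It had 7 UMIs in 42 interferon-responsive cells against 100 in 210 matched cells in library 2 (0.340-fold, 0.133 to 0.726), and 9 UMIs in 24 cells against 17 in 120 cells in library 3 (2.65-fold, 1.04 to 6.28). The difference between the libraries was not tested.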

How the results depend on the processing

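Of 241 alternative values, 157 stayed within the spread set for them and 84 moved. Among them 3 list medians near 0 changed sign, interferon signalling (-0.10) and heat shock (-0.06) without the top cell of each gene, and activation genes (0.03) in library 2 alone. Over all alternatives, with the value as reported in parentheses, the medians ranged from 0.79 to 1.40 for interferon effectors (1.07), -0.10 to 0.23 for interferon signalling (0.13), 0.52 to 1.01 for sensors (0.67), 0.52 to 0.93 for GTPases (0.79), 0.23 to 0.39 for MHC class I (0.33), 0.0038 to 0.27 for MHC class II (0.20) and 0.23 to 0.80 for chemokines (0.57). They ranged from -0.12 to -0.02 for homeostatic genes (-0.04), -0.16 to 0.03 for activation genes (-0.06), -0.48 to -0.01 for proliferation (-0.20), -0.25 to -0.08 for immediate early genes (-0.19), -0.06 to 0.17 for heat shock (0.08), 0.02 to 0.18 for NF-kB targets (0.15) and -0.38 to -0.02 for oligodendrocyte markers (-0.05). Leaving out the top cell of each gene was chosen after seeing the data. The share of interferon-responsive cells was 1.56% at 3 or more UMIs, 0.705% at 6, 0.479% at 10, 0.344% in thinned cells and 0.665% without Isg15, and it ranged from 0.763% to 1.14% with 1 library left out. Against 39, the higher genes numbered 73 with a pseudocount of 1 CPM, 21 at 20 CPM or more, 98 in thinned cells (30 of the 39 among them), 59 in library 2 alone and 233 in library 3 alone. Chosen after seeing the data, leaving out the cell with most UMIs of each gene gave 32, all among the 39. Against 5, the lower genes numbered 206 and 46 with pseudocounts of 1 and 5 CPM, 2 at 20 CPM or more, 1 against all 0-UMI cells, 255 in thinned cells, 19 at 6 or more UMIs, 10 with at least 3 chosen genes, 23 with both libraries summed, 63 and 470 in libraries 2 and 3 alone, and 52 without the top cell of each gene. Higher effectors numbered 12 at 20 CPM or more and 33 in library 3 alone, against 19. The effector level at 10 or more UMIs over that at 0 was 2.42, and 3.39 with cells thinned before binning (6 cells at 10 or more UMIs). It was 2.73 with cells thinned after binning and 3.75 without the 4 most abundant effectors, both chosen after seeing the data. Except where fewer genes or cells entered, the cause was not tested. No paired analysis was possible because each time point is 1 library. The 6 cells of library 1 and bins under 20 cells limit what the depth can show.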
